A study of Arabidopsis thaliana with 9 samples.

Results

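The genes described here are the WRKY transcription factors of Arabidopsis thaliana, chosen as every gene whose description in the authors' deposited table contains WRKY in any letter case, without the loci AT3G56400 (WRKY70) and AT2G38470 (WRKY33). The rule gave 70 of 37328 genes. It did not use any measured value. RNA sequencing compared whole seedlings of an RPGE2-overexpressing line (RPGE2-OX), of a double mutant of GLK1 and GLK2 (glk12) and of the Col-0 wild type (WT). Each genotype had 3 replicates, which makes 9 libraries. All seedlings had spent 3 days in the cold at 4 °C and 7 days at 22 °C under white light that stayed on at 50 µmol per m2 and s, per the labels. GLK1 and GLK2 switch on photosynthesis genes in the nucleus, and RPGE proteins repress photosynthetic genes. The sources used here do not give the promoter that drives RPGE2, the number of independent lines or the alleles of the double mutant. The labels do not say that replicates came from separate cultures, so the q values may rest on a technical spread.

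WRKY proteins are plant transcription factors that bind the W-box, a DNA element with the core TTGAC, through a zinc-binding domain that carries the residues WRKYG. They are sorted into groups I, II and III by the number of these domains and the form of the zinc finger. Many are induced by microbes, salicylic acid, oxidative stress or leaf ageing, often downstream of mitogen-activated protein kinases, and many have W-boxes in their own promoters.

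The label was checked on the TAIR10.1 genome (RefSeq), by translating the longest annotated coding sequence of each gene and counting copies of WRKYG. A single copy was found in 55 genes and 2 copies in 10 genes, namely WRKY2, WRKY3, WRKY4, WRKY20, WRKY25, WRKY26, WRKY32, WRKY34, WRKY44 and WRKY58. The other 5 genes held 0 copies. These were AT1G64140, AT3G32090, AT3G56390, AT5G46310 and AT4G31805, which the annotation names POLAR, a polarity protein of the stomatal lineage. Of the 8 genes placed in group I by the annotation, WRKY10, WRKY23 and WRKY45 held 1 copy.

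The W-box cores before 2 genes are shown because these genes passed the test in both lines and their upstream windows hold the core and overlap no annotated exon. Each window is the 250 bases before the annotated gene start on TAIR10.1, read 5′ to 3′ on the gene's strand, with TTGAC and its reverse complement GTCAA in capitals. They lie at chr5:8154711-8154960 (minus strand) for WRKY30 and chr4:10060964-10061213 (plus strand) for WRKY28.
WRKY30: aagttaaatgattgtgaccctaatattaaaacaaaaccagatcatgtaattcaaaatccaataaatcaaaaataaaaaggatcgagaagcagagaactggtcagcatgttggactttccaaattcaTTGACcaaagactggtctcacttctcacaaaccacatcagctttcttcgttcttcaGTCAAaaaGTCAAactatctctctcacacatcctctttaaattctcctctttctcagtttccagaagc
WRKY28: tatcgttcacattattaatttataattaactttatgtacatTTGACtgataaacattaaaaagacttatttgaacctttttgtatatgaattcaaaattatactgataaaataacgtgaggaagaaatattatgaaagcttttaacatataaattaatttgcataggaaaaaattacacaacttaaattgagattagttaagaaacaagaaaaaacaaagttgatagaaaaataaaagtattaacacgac

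The table gave a log2 ratio over WT and a q value, the p-value adjusted for all genes tested, for each line. It held no value per replicate, so the depth of the libraries is unknown and the spread is known only through the q values. A q of 1 was taken as untested, and q below 0.05 as passing the test. Of the 70 genes, 53 were tested in RPGE2-OX and 54 in glk12. Untested genes made up 24.3% of the WRKY genes in RPGE2-OX and 22.9% in glk12, against 41.9% and 41.5% of all genes. In glk12, GLK1 stood at -2.64 (q = 0.00191) and GLK2 at -1.41 (q = 0.00191) in the authors' deposited table. Both stood above 0 in RPGE2-OX in the authors' deposited table, GLK1 at 0.45 (q = 0.0132) and GLK2 at 0.40 (q = 0.0379). RPGE2 was not matched to a locus here.

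In RPGE2-OX, 4 of the 53 tested WRKY genes passed the test against WT, where 6.55% of all tested genes did, and in glk12 8 of 54 did, where 5.67% of all did. The 4 genes of RPGE2-OX were among the 8 of glk12, and both lines were set against the same WT libraries. The overlap of calls between the lines over all tested genes was not counted. WRKY30, WRKY28 and WRKY45 were higher than WT in both lines and WRKY49 was lower in both. WRKY26, WRKY6, WRKY40 and WRKY15 passed in glk12, all higher than WT, and did not pass in RPGE2-OX. By direction, 3 of 53 (5.66%) were higher in RPGE2-OX, where 2.57% of all tested genes were, and 1 of 53 (1.89%) was lower, where 3.98% were. In glk12, 7 of 54 (13.0%) were higher, where 2.63% of all tested genes were, and 1 of 54 (1.85%) was lower, where 3.04% were. The typical WRKY gene lay near 0. The median log2 ratio of tested WRKY genes was -0.025 in RPGE2-OX and 0.039 in glk12, and that of all tested genes 0.014 in RPGE2-OX and 0.019 in glk12. At a 2-fold minimum besides q below 0.05, 3 genes passed in RPGE2-OX and 4 in glk12. The share of all tested genes at that minimum was not counted.

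**Figure D1:**
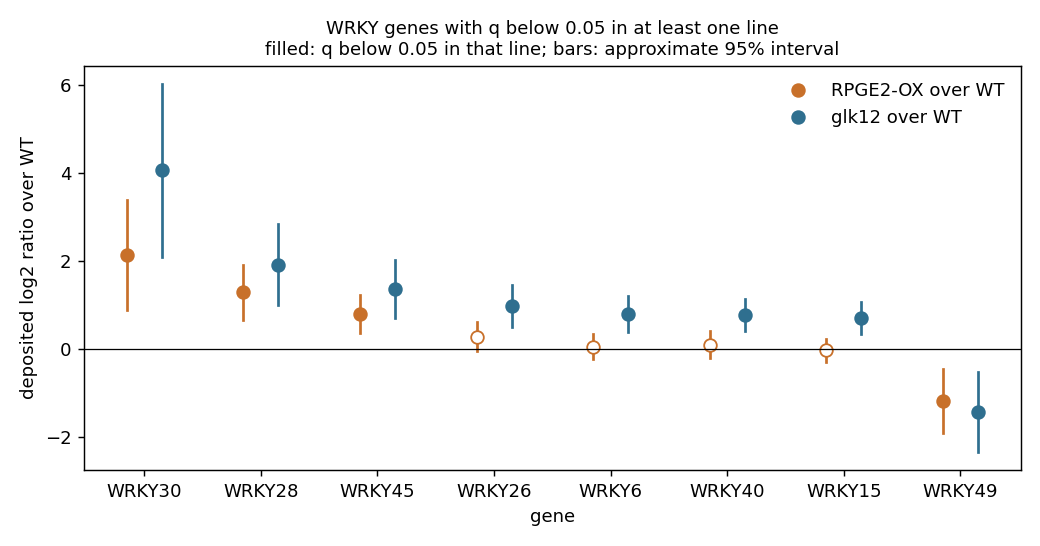
Deposited log2 ratios over WT (vertical axis) of the 8 WRKY genes that passed the test in at least 1 line, RPGE2-OX left of glk12 for each gene, with filled points for q below 0.05 and bars for the approximate 95% interval implied by the q value. WRKY30, WRKY28 and WRKY45 are filled above 0 and WRKY49 below 0 in both lines. WRKY26, WRKY6, WRKY40 and WRKY15 are filled above 0 in glk12 and open in RPGE2-OX. There WRKY6, WRKY40 and WRKY15 lie near 0 and WRKY26 lies at 0.28.

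WRKY30 (AT5G24110, chromosome 5, 8153115 to 8154710, minus strand, TAIR10.1) belongs to group III and is induced by reactive oxygen species and microbial elicitors. It had the largest finite ratios among the genes that passed. The authors' deposited table listed it at 2.13 in RPGE2-OX, 4.38-fold higher than WT (q = 0.0168), with an approximate 95% interval of 0.89 to 3.37. In glk12 the authors' deposited table listed it at 4.05, 16.6-fold higher than WT (q = 0.00191, interval 2.09 to 6.01). That glk12 q value is the lowest its comparison can give, so the glk12 interval is at its widest. The 2 intervals overlap, which does not show that the lines are alike. Its window above holds 3 W-box cores, the first on the gene's strand and 2 on the opposite strand.

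WRKY28 (AT4G18170, chromosome 4, 10061214 to 10062893, plus strand) belongs to group II-c and activates salicylic acid synthesis through ICS1. In the authors' deposited table its log2 ratio was 1.28 in RPGE2-OX, 2.43-fold higher than WT (q = 0.00176, interval 0.66 to 1.90). Its ratio in glk12 was 1.91 in the authors' deposited table, 3.76-fold higher (q = 0.00191, interval 0.99 to 2.83). These q values are the lowest each comparison can give, which corresponds to an unadjusted p of 5e-05, so the intervals are at their widest. Its window holds 1 W-box core.

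WRKY45 (AT3G01970, chromosome 3, 325952 to 327412, minus strand) responds to phosphate starvation and activates the phosphate transporter gene PHT1;1. The authors' deposited table gave it a log2 ratio of 0.79 in RPGE2-OX, 1.73-fold higher than WT (q = 0.0113, interval 0.35 to 1.23). For glk12 the authors' deposited table gave 1.36, 2.56-fold higher (q = 0.00191, interval 0.70 to 2.02). This glk12 q value is also the lowest possible, so the glk12 interval is at its widest.

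WRKY49 (AT5G43290, chromosome 5, 17371808 to 17373221, minus strand), also of group II-c, was the WRKY gene that passed in the downward direction. It stood at -1.18 in RPGE2-OX in the authors' deposited table, 2.27-fold lower than WT (q = 0.0296, interval -1.92 to -0.45). In glk12 it stood at -1.44 in the authors' deposited table, 2.71-fold lower (q = 0.0354, interval -2.34 to -0.53).

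The other 4 genes passed in glk12. WRKY26 (AT5G07100, chromosome 5, 2204206 to 2205965, plus strand) acts in the heat response together with WRKY25 and WRKY33. The authors' deposited table listed it at 0.28 in RPGE2-OX (q = 0.418) and at 0.98 in glk12, 1.97-fold higher than WT (q = 0.00191). Its partner WRKY25 stood at -0.13 in RPGE2-OX (q = 0.759) and 0.14 in glk12 (q = 0.851) in the authors' deposited table. WRKY33, left out by the rule, stood at 0.18 in RPGE2-OX (q = 0.611) and at 0.61 in glk12, 1.52-fold higher than WT (q = 0.0211), in the authors' deposited table.

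WRKY6 (AT1G62300, chromosome 1, 23016569 to 23019494, minus strand) acts in leaf senescence and represses the phosphate exporter gene PHO1. It stood in the authors' deposited table at 0.049 in RPGE2-OX (q = 0.951) and at 0.79 in glk12, 1.73-fold higher than WT (q = 0.00345). WRKY15 (AT2G23320, chromosome 2, 9924886 to 9926372, plus strand), a regulator of oxidative and salt stress responses, had -0.033 in RPGE2-OX (q = 0.969) and 0.70 in glk12, 1.62-fold higher (q = 0.00630), in the authors' deposited table. WRKY40 (AT1G80840, chromosome 1, 30383561 to 30385499, plus strand) is induced by microbes and represses abscisic acid response genes. Its values in the authors' deposited table were 0.091 in RPGE2-OX (q = 0.899) and 0.77 in glk12, 1.70-fold higher than WT (q = 0.00191).

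**Figure D2:**
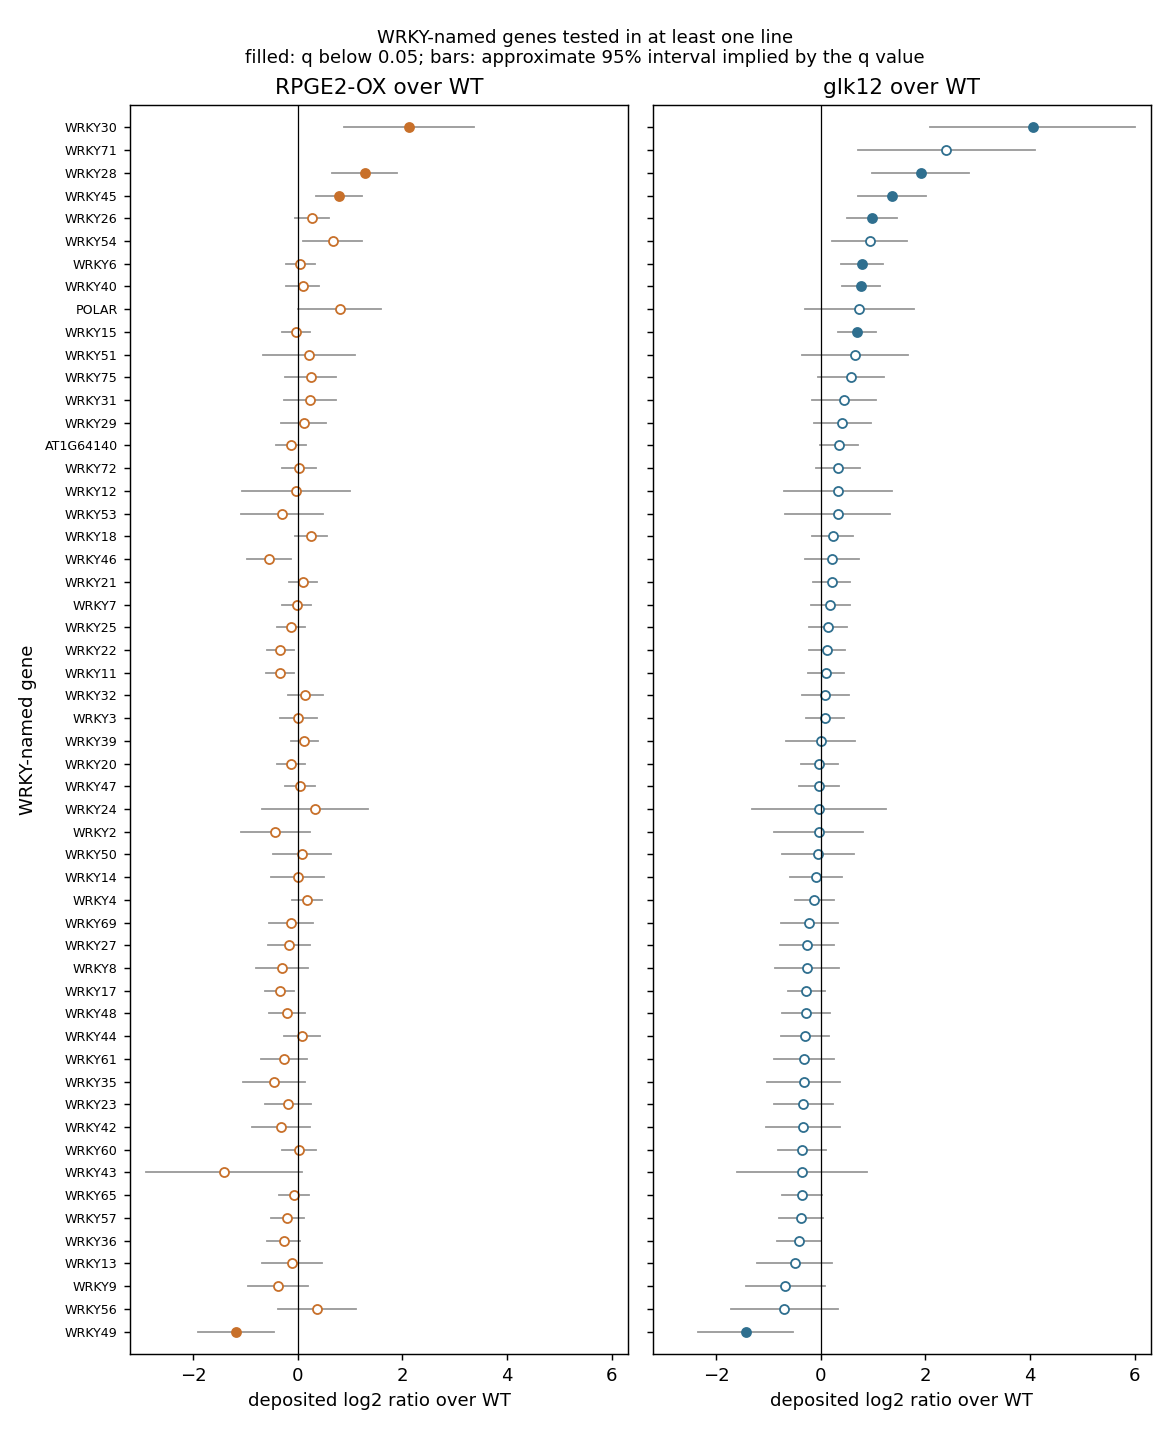
Deposited log2 ratios over WT (horizontal axes) of the WRKY genes tested in at least 1 line, RPGE2-OX in the left panel and glk12 in the right panel, with filled points for q below 0.05 and bars for the approximate 95% interval. Most points lie within 1 log2 unit of 0 in both panels, with WRKY30 at 2.13 and 4.05 at the top and WRKY49 at -1.18 and -1.44 at the bottom.

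A call in glk12 and none in RPGE2-OX does not show that the lines differ, so the difference of both ratios, RPGE2-OX minus glk12, was tested. Its error adds the errors implied by both q values and is too large rather than too small, because WT is shared. Of 53 WRKY genes testable in both lines, 0 passed at a Benjamini-Hochberg adjusted p below 0.05, where 0.15% of 21380 genes did. The lowest adjusted p was 0.275. At an unadjusted p below 0.05 there were 8 genes (15.1%, against 3.60% of all genes), and all 8 were lower in RPGE2-OX. WRKY15 differed by -0.73 ± 0.23 (SE), WRKY6 by -0.74 ± 0.25 and WRKY40 by -0.68 ± 0.25. WRKY26, WRKY46, WRKY22, AT1G64140 and WRKY11 made up the rest, with differences between -0.76 and -0.44. The 3.60% of all genes counts both directions. The differences were not centred, and the reference genes described below had a median of -0.0020 in RPGE2-OX and 0.13 in glk12. How centring would change these differences was not tested.

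The size of that error decides these calls. With 50% of the summed error variance taken off as the shared WT part, 4 of the 53 genes (WRKY15, WRKY6, WRKY40 and WRKY26) passed as lower in RPGE2-OX, where 1.31% of all genes did. The 95% interval of the difference was then -1.05 to -0.41 for WRKY15, -1.09 to -0.40 for WRKY6, -1.02 to -0.34 for WRKY40 and -1.10 to -0.29 for WRKY26. A single WT adds the same error to both ratios, so 50% of each variance can be shared only where both errors are equal. For these 4 genes the implied SE was larger in glk12. It was 0.20 against 0.14 in RPGE2-OX for WRKY6 and 0.24 against 0.16 for WRKY26. The setting may therefore make the error too small, and the 4 calls depend on it. How much of the variance WT contributed is not known from the table. For the genes that passed in both lines, the difference was -1.92 for WRKY30 (95% interval -4.24 to 0.39), -0.63 for WRKY28 (-1.74 to 0.48), -0.57 for WRKY45 (-1.36 to 0.22) and 0.26 for WRKY49 (-0.91 to 1.42), with the summed error. Each of these intervals includes 0, and differences of more than 2-fold lie inside all 4. With 50% of the summed variance taken off, the intervals were -3.56 to -0.28 for WRKY30 and -1.13 to -0.0082 for WRKY45, which leave out 0. They were -1.41 to 0.16 for WRKY28 and -0.57 to 1.08 for WRKY49, which include it. The same limit applies here, with implied SEs of 0.63 in RPGE2-OX and 1.00 in glk12 for WRKY30 and of 0.23 and 0.34 for WRKY45. These intervals may be too narrow, so they do not settle whether 0 is left out. None of these 4 genes passed the adjustment over all genes under either error.

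By structural group, taken from the RefSeq annotation except for the known trio of group II-a, calls were spread over groups I, II-a, II-c and III and the genes with no group in the annotation. The annotation gives no group for 20 genes, WRKY6, WRKY15 and WRKY26 among them, so the group counts are incomplete. The group I call is that of WRKY45, which held 1 WRKYG copy and not 2. Of 7, 3 and 5 tested genes annotated to groups II-b, II-d and II-e, 0 passed in RPGE2-OX and 0 in glk12. Genes without a group in the annotation, 3 of which passed in glk12, may belong to these groups. The counts of 0 therefore hold only for the annotated genes. Over all tested genes 6.55% passed in RPGE2-OX and 5.67% in glk12, so 0 of this few genes is near that share. At an unadjusted p below 0.05, these 3 groups had 0, 2 and 1 genes in RPGE2-OX and 0, 0 and 0 in glk12. All 7 genes annotated to group II-b were tested, and their median ratio was -0.26 in RPGE2-OX and -0.32 in glk12. All 5 genes annotated to group II-e were below 0 in RPGE2-OX and 4 of 5 in glk12.

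**Figure D3:**
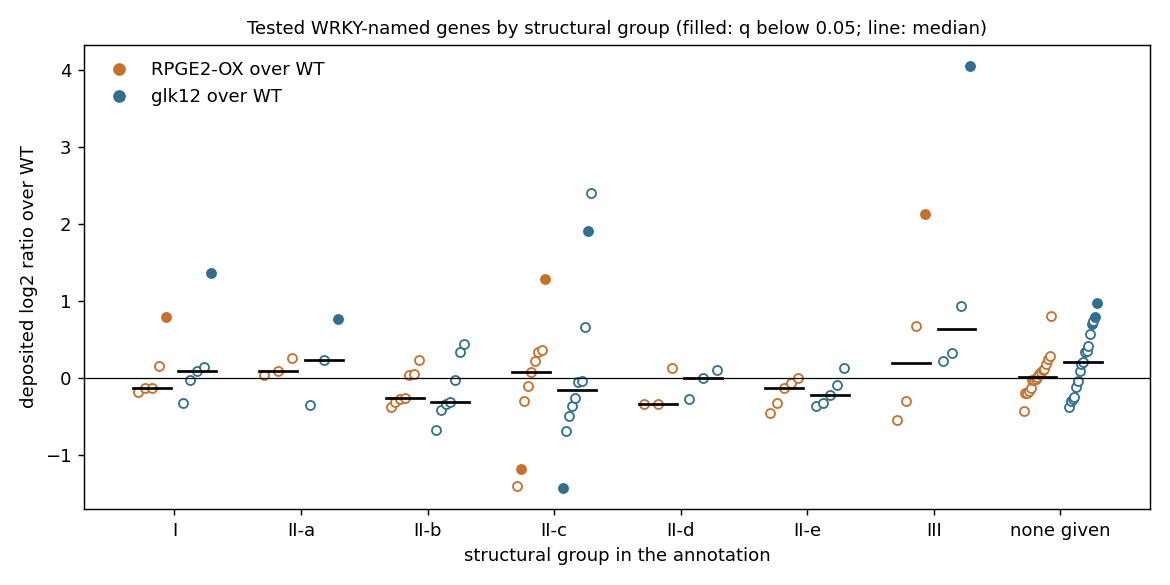
Deposited log2 ratios over WT (vertical axis) of tested WRKY genes by structural group (horizontal axis), RPGE2-OX left of glk12 in each group, with filled points for q below 0.05 and short lines for medians. As annotated, groups II-b, II-d and II-e hold no filled point, and WRKY30 of group III, at 2.13 and 4.05, lies highest in each line. The annotation gives no group for 3 of the genes filled in glk12.

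Group II-a holds WRKY18, WRKY40 and WRKY60, which can pair with each other and act redundantly in defence. WRKY40 passed in glk12, as given above. WRKY18 stood at 0.25 in RPGE2-OX (q = 0.446) and 0.23 in glk12 (q = 0.693) in the authors' deposited table. WRKY60 stood at 0.029 in RPGE2-OX (q = 0.979) and -0.36 in glk12 (q = 0.530) in the authors' deposited table.

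Group III contains regulators of salicylic acid signalling and senescence, and 4 of its 11 genes were tested in each line. WRKY46 and WRKY54 act with WRKY70 in salicylic acid and brassinosteroid responses. The authors' deposited table had WRKY54 at 0.66 in RPGE2-OX (q = 0.178) and 0.93 in glk12 (q = 0.129). WRKY46 had -0.55 in RPGE2-OX (q = 0.109) and 0.21 in glk12 (q = 0.835) in the authors' deposited table. WRKY53, a positive regulator of leaf senescence, was listed at -0.30 in RPGE2-OX (q = 0.843) and 0.32 in glk12 (q = 0.894) in the authors' deposited table. WRKY70, a repressor of senescence left out by the rule, was listed in the authors' deposited table at 0.47 in RPGE2-OX, 1.39-fold higher than WT (q = 0.00921), and at 0.30 in glk12 (q = 0.467).

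The untested members of group III had ratios without a test. WRKY55 was listed at 2.25 in RPGE2-OX and 2.09 in glk12, and WRKY62, a negative regulator of defence, at 1.96 and 2.58, in the authors' deposited table. WRKY38, which acts with WRKY62, was listed at -1.94 in RPGE2-OX and -0.12 in glk12 in the authors' deposited table. WRKY41 had an upward infinite ratio in both lines and WRKY66 in glk12, which means that WT is listed at 0. No fold is given for them. Outside group III, WRKY10, a seed-size regulator of the endosperm, had a downward infinite ratio in RPGE2-OX and was untested in both lines. Ratios of exactly 0 without a test stood beside 7 genes in RPGE2-OX and 6 in glk12, and the remaining 8 untested genes of each line had finite ratios.

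WRKY22 and WRKY29 act below flagellin perception. In the authors' deposited table WRKY22 stood at -0.33 in RPGE2-OX (q = 0.124) and 0.12 in glk12 (q = 0.868), and WRKY29 at 0.11 (q = 0.917) and 0.41 (q = 0.541). WRKY11 and WRKY17, negative regulators of basal defence, stood at -0.34 (q = 0.111) and -0.35 (q = 0.116) in RPGE2-OX and at 0.095 (q = 0.919) and -0.28 (q = 0.525) in glk12 in the authors' deposited table. WRKY75, another phosphate starvation and senescence regulator, was at 0.25 in RPGE2-OX (q = 0.742) and 0.57 in glk12 (q = 0.405) in the authors' deposited table. WRKY71, a regulator of shoot branching, was untested in RPGE2-OX. In glk12 it had the highest ratio among tested WRKY genes that did not pass, 2.40 (q = 0.0796) in the authors' deposited table.

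WRKY50 and WRKY51, which repress jasmonate responses when oleic acid is low, stood at 0.075 (q = 0.965) and 0.21 (q = 0.924) in RPGE2-OX and at -0.051 (q = 0.985) and 0.65 (q = 0.642) in glk12 in the authors' deposited table. WRKY42, a further regulator of phosphate transport, was at -0.32 in RPGE2-OX (q = 0.675) and -0.34 in glk12 (q = 0.786) in the authors' deposited table. Among developmental members, WRKY44, which shapes trichomes and the seed coat, stood at 0.072 in RPGE2-OX (q = 0.940) and -0.30 in glk12 (q = 0.643) in the authors' deposited table. WRKY23, which acts in auxin responses of the root, stood at -0.19 in RPGE2-OX (q = 0.806) and -0.33 in glk12 (q = 0.689) in the authors' deposited table. WRKY57, a drought response factor, stood at -0.20 in RPGE2-OX (q = 0.622) and -0.38 in glk12 (q = 0.390) in the authors' deposited table.

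Of the tested genes without the WRKYG residues, POLAR had 0.80 in RPGE2-OX (q = 0.304) and 0.74 in glk12 (q = 0.589), and AT1G64140 had -0.13 (q = 0.774) and 0.34 (q = 0.369), in the authors' deposited table. The 8 genes that passed in at least 1 line all carry the WRKYG residues, as do all but 5 of the 70 genes. Of those 5, only POLAR and AT1G64140 were tested. Over all tested genes 6.55% passed in RPGE2-OX and 5.67% in glk12, so no call among so few genes is near that share.

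Of the 49 tested genes that did not pass in RPGE2-OX, 22 were above 0 and 27 below, between -1.41 and 0.80. In glk12, 20 of 46 such genes were above 0 and 26 below, between -0.69 and 2.40. The approximate 95% interval lay within a 2-fold change either way for 39 of the 49 in RPGE2-OX and for 31 of the 46 in glk12. For the other 10 genes in RPGE2-OX and 15 in glk12 the interval reached a 2-fold change or more, so a change of that size lies within the error. The median implied SE of a WRKY gene was 0.213 in RPGE2-OX and 0.271 in glk12, against 0.182 and 0.241 over all tested genes.

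The W-box core TTGAC, searched on both strands, was present in the 250 bases before 35 of the 70 WRKY genes (50.0%). Of 27443 windows of the same length before protein-coding genes, 44.9% held it. It was found before 7 of the 8 genes that passed in at least 1 line (87.5%) and before 19 of the 46 that were tested and passed in neither (41.3%). At least 2 cores stood before 3 of the 8 genes, WRKY30, WRKY45 and WRKY15, where 14.1% of all windows held as many. The longer forms TTGACC and TTGACT, which contain the core, stood before 5 of the 8 (62.5%), where 28.4% of all windows held one. The windows of WRKY45 and WRKY26 overlap exons of neighbouring genes. These matches describe letters in the windows and do not show binding.

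**Figure D4:**
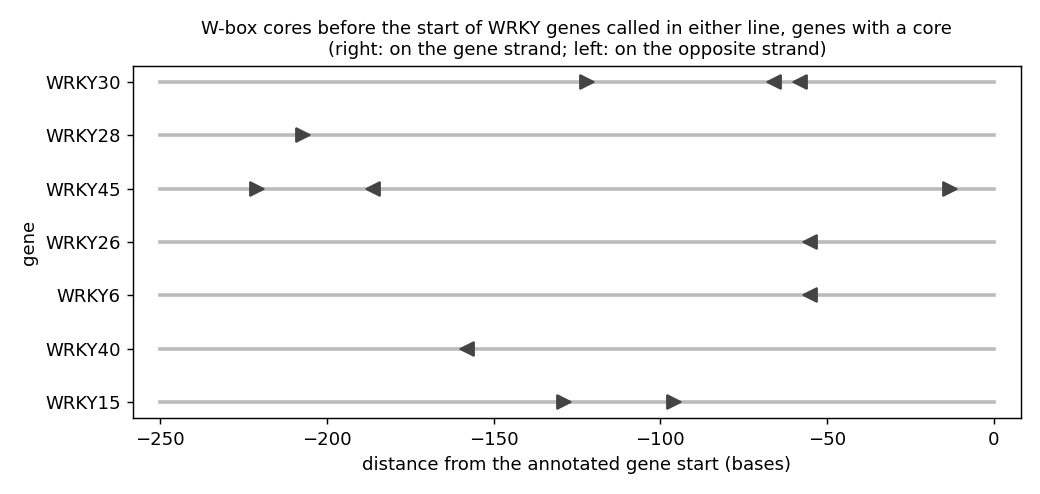
W-box cores in the 250 bases before the annotated start of the 7 WRKY genes that passed in at least 1 line and hold a core there, by distance from the start in bases (horizontal axis), with right-pointing marks for the gene's strand and left-pointing marks for the opposite strand. WRKY30 and WRKY45 carry 3 cores each, WRKY15 carries 2 and WRKY28, WRKY26, WRKY6 and WRKY40 carry 1 each.

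Genes around WRKY action were counted in lists chosen for this purpose, with earlier results of these data known. The counts describe the lists, and an excess over all genes was not tested. Over all tested genes, 2.57% were higher and 3.98% lower in RPGE2-OX, and 2.63% were higher and 3.04% lower in glk12. Upstream of WRKY factors, 16 receptor, kinase and oxidase genes of immune signalling were tested. In RPGE2-OX 0 passed (0 at an unadjusted p below 0.05), with a median of 0.070. In glk12, 2 of 16 rose, where 2.63% of all tested genes did. RBOHD, the NADPH oxidase that makes extracellular reactive oxygen, stood at 0.94 (q = 0.00191) and BIK1, a cytoplasmic kinase below immune receptors, at 0.67 (q = 0.0201) in the authors' deposited table. Their values in RPGE2-OX were -0.14 (q = 0.703) and -0.073 (q = 0.921) in the authors' deposited table. The median of the 16 genes in glk12 was 0.31.

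VQ proteins bind WRKY factors and alter their activity. Of 25 tested VQ genes 0 passed in RPGE2-OX (4 at an unadjusted p below 0.05), with a median of -0.019. Of 26 tested in glk12, 3 rose, where 2.63% of all tested genes did, and 0 fell, with a median of 0.26. These were AT1G68450 at 2.29 (q = 0.0155), AT4G20000 at 1.77 (q = 0.00630) and AT3G22160, known as JAV1 and a repressor of jasmonate defence, at 0.70 (q = 0.0361), all in the authors' deposited table. MKS1, SIB1 and SIB2, which bind WRKY33, did not pass in either line.

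Immunity-induced genes had 3 of 13 tested genes higher and 0 lower in RPGE2-OX, with a median of 0.33, and 3 of 14 higher and 0 lower in glk12, with a median of 0.38, where 2.57% and 2.63% of all tested genes were higher. PROPEP3, precursor of a danger peptide, stood at 2.47 in RPGE2-OX (q = 0.00176) and 2.64 in glk12 (q = 0.00191) in the authors' deposited table. CYP81F2, an enzyme of indole glucosinolate defence, stood at 0.54 in RPGE2-OX (q = 0.0168) and 1.37 in glk12 (q = 0.00191) in the authors' deposited table. NHL10 was at 1.07 in RPGE2-OX (q = 0.0753) and 2.98 in glk12 (q = 0.00191) in the authors' deposited table. ERF104, an ethylene response factor, was at 0.40 in RPGE2-OX (q = 0.0486) and 0.081 in glk12 (q = 0.943) in the authors' deposited table.

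Senescence genes had 3 of 6 tested genes higher in RPGE2-OX, with a median of 0.44, and 3 of 7 in glk12, with a median of 1.04, and 0 were lower in either line. Among all tested genes, 2.57% were higher in RPGE2-OX and 2.63% in glk12. SEN1 stood at 1.43 in RPGE2-OX (q = 0.00176) and 1.83 in glk12 (q = 0.00191), and SAG21 at 0.60 (q = 0.00176) and 1.20 (q = 0.00191), in the authors' deposited table. NAP, a senescence NAC factor, passed in RPGE2-OX at 0.57 (q = 0.00465) and stood at 0.32 in glk12 (q = 0.473) in the authors' deposited table. ORE1, another NAC factor, stood at 0.30 in RPGE2-OX (q = 0.355) and passed in glk12 at 1.04 (q = 0.00191) in the authors' deposited table. SGR1, at 0.023 in RPGE2-OX (q = 0.982) and -0.024 in glk12 (q = 0.988), did not pass in the authors' deposited table. SAG29, at -0.21 (q = 0.734) and 0.18 (q = 0.872), did not pass either. SAG12 was untested in both lines. SAG13 was untested in RPGE2-OX, and its upward infinite ratio in glk12 did not pass (q = 0.504) but counts in the median. Of 5 phosphate genes, SPX1, a phosphate sensor, passed in RPGE2-OX at 0.46 (q = 0.0402) and stood at 0.43 in glk12 (q = 0.232) in the authors' deposited table. The other 4 phosphate genes, PHO1 and PHT1;1 among them, did not pass in either line.

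**Figure D5:**
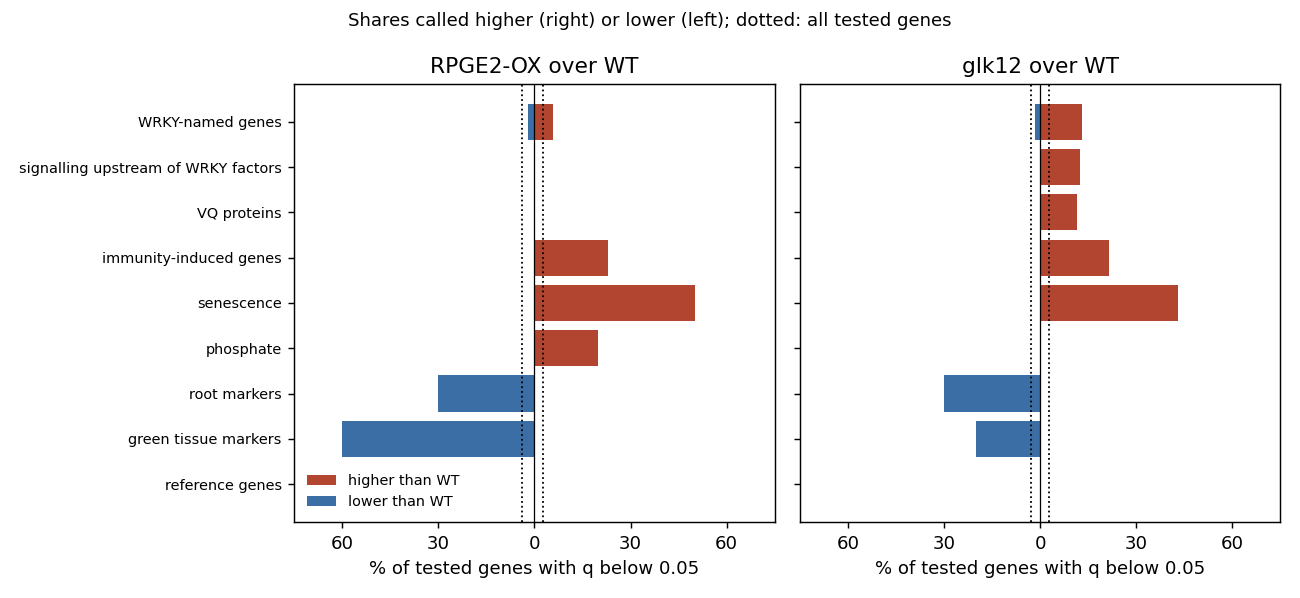
Percent of tested genes with q below 0.05 (horizontal axes), higher than WT to the right and lower to the left, for the WRKY genes and each gene list, with RPGE2-OX in the left panel and glk12 in the right panel and dotted lines for all tested genes. The WRKY bar to the right reaches 5.66% in RPGE2-OX and 13.0% in glk12, and root and green tissue markers have bars to the left in both panels.

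Tissue markers moved in the same samples. Of 10 root markers, 3 were lower in RPGE2-OX and 3 in glk12, with 9 of 10 below 0 in each line and medians of -0.30 and -0.67, where 3.98% and 3.04% of all tested genes were lower. They were RCI3 and COBL9 in both lines, PRP3 in RPGE2-OX and EXPA18 in glk12. The authors' deposited table had RCI3, a root peroxidase, at -0.56 in RPGE2-OX (q = 0.00176) and -0.69 in glk12 (q = 0.00345), and COBL9, a root hair gene, at -0.68 (q = 0.0176) and -0.89 (q = 0.0229). PRP3 stood at -0.66 in RPGE2-OX (q = 0.0275) and EXPA18 at -0.86 in glk12 (q = 0.0482) in the authors' deposited table. Of 5 green tissue markers, 3 were lower in RPGE2-OX and 1 in glk12, with 5 of 5 below 0 in each line and medians of -0.52 and -0.23. CA1, a carbonic anhydrase, stood at -0.62 in RPGE2-OX (q = 0.0216) and -1.14 in glk12 (q = 0.00191) in the authors' deposited table. RCA and GDCP1 passed in RPGE2-OX, at -0.52 (q = 0.0176) and -0.54 (q = 0.00465) in the authors' deposited table. In whole seedlings, fewer cells of a type and less RNA per cell cannot be told apart, and the part of tissue proportions in the WRKY values was not tested. Of 10 reference genes 0 passed in either line (0 in RPGE2-OX and 1 in glk12 at an unadjusted p below 0.05), and their median was near 0 in RPGE2-OX and 0.13 in glk12.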

How the data were processed

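RNA was sequenced from 9 libraries of whole seedlings, 3 each of RPGE2-OX, glk12 and WT. CASAVA 1.8.2, TopHat, Cufflinks, Cuffdiff and the build TAIR10 are the tools and build named per the submitters' processing notes, which assign them no steps. The authors deposited a table of their comparisons with a log2 ratio over Col-0 and a q-value per gene and line, per the file headers. The sources used here do not give the unit behind the ratios, any filters or how replicates were joined, and 0 columns of per-sample values were left unused. Infinite ratios, stored as spreadsheet text, were decoded by the reading under which the 1294 genes infinite for both lines never differ in sign. The p-values behind the deposited q-values were recovered by inverting the Benjamini-Hochberg adjustment. An SE was taken for each log2 ratio as the ratio over the normal score of that p, an upper limit for genes at the lowest p, and approximate 95% intervals were set from it. Where that score was below 0.1, the larger error of both lines was used. Differences between lines used a normal two-sided p with Benjamini-Hochberg adjustment over all genes. Steps were checked on simulated data with normal errors, in which WT made up 50% of each variance by construction. That check therefore cannot decide whether the shared-variance setting holds for the real data. Work used Python 3.11.15, pandas 2.3.3, numpy 2.4.6, scipy 1.17.1, biopython 1.88 and matplotlib 3.10.9. An infinite ratio counted as the highest or lowest value in a list's median. All WRKY genes with q below 0.05 in a line are named, other members by a list of known roles, and called genes of each list are named. GLK1 and GLK2 were named as the check of the mutant. The sequence of a further upstream window is not reported here. The members and lists were chosen with earlier results of these data known. Alternatives were other q thresholds, a 2-fold minimum, centring, other member lists and other errors of the difference.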

Additional observations from a re-analysis of the deposited data

How the results depend on the processing

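The number of WRKY genes past the test in RPGE2-OX fell to 1 (WRKY28) at q below 0.01, against 4 at 0.05, and the number in glk12 was 4 with a 2-fold minimum, against 8. Under the other settings, the count stayed between 3 and 5 in RPGE2-OX and between 7 and 9 in glk12; these were a 2-fold minimum in RPGE2-OX, q below 0.01 in glk12, q below 0.1, numbered WRKY genes alone, all genes that name WRKY, and centring on reference genes or on all tested genes. The last 3 settings were chosen after seeing the data. Shares of all tested genes at the other q thresholds and at the 2-fold minimum were not counted. The glk12 median was -0.095 when centred on reference genes, against 0.039. WRKY49 in both lines and WRKY45 and WRKY30 in RPGE2-OX did not pass at q below 0.01, and no gene that passed changed direction under centring. Among genes whose values are given and that had not passed in glk12, WRKY22 (0.12), WRKY11 (0.095) and ERF104 (0.081) fall below 0 when the reference gene median of 0.13 is subtracted. For RPGE2-OX minus glk12, 4 WRKY genes passed with 50% of the summed variance taken off, which may make the error too small. With error bounds, with a borrowed error at the lowest p or at an adjusted p below 0.1, 0 passed. No paired analysis was possible because the table holds no values per replicate, and for the same reason leaving out replicates was not run. Depth is unknown, so precision rests on the deposited q values.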

Other observations

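Other families of transcription factors, found by their descriptions, were counted by the same threshold. NAC genes had 4 of 61 tested genes higher in RPGE2-OX (6.56%) and 0 lower, and 7 of 63 higher in glk12 (11.1%) and 1 lower. For MYB genes, 3 were higher and 9 lower of 104 tested in RPGE2-OX, and 4 higher and 5 lower of 104 in glk12. ERF genes had 2 higher and 4 lower of 65 tested in RPGE2-OX, and 2 higher and 4 lower of 66 in glk12. For bHLH genes, 3 were higher and 7 lower of 103 tested in RPGE2-OX, and 4 higher and 5 lower of 104 in glk12. Of all tested genes, 2.57% were higher and 3.98% lower in RPGE2-OX, and 2.63% higher and 3.04% lower in glk12. None of these family differences from all genes was tested. A further 5 genes carry WRKY in their symbols and not in their descriptions (WRKY1, WRKY16, WRKY19, WRKY52 and WRKY63), and 0 of them passed in either line. Of these, WRKY63 was untested in RPGE2-OX and stood at 4.25 in glk12 (q = 0.681) in the authors' deposited table.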
